A study of Danio rerio with 30 samples.

Results

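The synaptic vesicle release genes are the genes whose products load transmitter into vesicles, hold the vesicles at the nerve terminal, fuse them with the membrane and retrieve them. They were chosen by name in the deposited table, as every synaptotagmin, complexin, snap25 gene, VAMP, syntaxin-binding protein, Munc13, RIM, SV2 and synapsin. Added to these were snap91 and the vesicular glutamate and inhibitory amino acid transporters. Genes so chosen also had to reach a normalised count of 10 in 5 or more of the 30 libraries. Of 75 genes with a matching name, 60 met it, out of 27731 genes in the table. The libraries were RNA-seq libraries from dissected pieces of the zebrafish eye, taken from the optic fissure region (OF) or from the dorsal retina (DR), the control region. OF and DR were each sampled at 32, 48 and 56 hours post-fertilisation (hpf), when the fissure is open, fusing and fused, with 5 biological replicates in each of the 6 groups. The labels name no treatment and no allele for any group, and do not say which strain was used, or how many embryos went into 1 library. The pieces were mixed tissue, so fewer cells of a type and less RNA per cell cannot be told apart in any value given here.

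A vesicle is filled by a proton-driven transporter, such as the vesicular glutamate transporters or the vesicular inhibitory amino acid transporter that carries GABA and glycine. Fusion is driven by SNARE proteins: a VAMP in the vesicle membrane coils together with SNAP-25 and a syntaxin in the plasma membrane. Munc18, Munc13 and RIM proteins arrange that assembly at the release site, complexins bind the assembled SNAREs, and synaptotagmins sense the calcium that triggers release. In the retina, amacrine cells release transmitter at conventional synapses, whereas photoreceptors and bipolar cells use ribbon synapses. At ribbon synapses a different set of complexins is known from mouse.

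Depth was 4.49 M to 12.3 M reads per library, and 11777 to 25740 genes had a read. Both libraries of replicate 1 at 32 hpf stood apart from the rest of their groups, with 13854 genes in OF and 11777 in DR, and the library with 25740 genes was DR replicate 1 at 56 hpf. At 48 hpf the libraries of replicate 5 went against their labels. The summed normalised count of 4 ventral eye genes (aldh1a3, pax2a, vax1 and vax2) was 72.6 in the library labelled OF and 1851 in the library labelled DR. In the other 4 replicates at 48 hpf it was 1566 to 2476 in OF and 7.88 to 31.2 in DR. Regional results are therefore also given from a paired fit, in which OF and DR of the same replicate number form a pair and those pairs of replicates 1 and 5 are left out, so that 13 pairs remain.

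The release genes were low at 32 hpf and high at 48 and 56 hpf in both regions. Summed over the 60 genes, the normalised count at 32 hpf was 2940.5, 4531, 3401, 3418 and 2788 in the OF libraries of replicates 1 to 5 and 3738, 3785, 3060.4, 3329.7 and 2804 in DR. At 48 hpf the sums were 19176, 20402, 23471, 9827 and 7054 in OF and 13795, 11428, 17188, 5632 and 7604 in DR. At 56 hpf they were 34066, 27399, 20014, 22159.6 and 17888 in OF and 18523, 19219.5, 14302, 13639 and 9618 in DR. All 20 libraries at 48 and 56 hpf lay above all 10 at 32 hpf, while 48 and 56 hpf overlapped. The number of the 60 genes with at least 1 read was 16 to 51 per library at 32 hpf, 53 to 60 at 48 hpf and 57 to 60 at 56 hpf. Of the 60 genes, 8 are known mainly from cells other than neurons or from general membrane traffic (vamp3, vamp4, vamp5, vamp8, stxbp2, stxbp3, stxbp4 and unc13d). The sum of these 8 had a median of 2573 at 32 hpf, 2116 at 48 hpf and 2103 at 56 hpf over 10 libraries each, whereas the sum of the other 52 had a median of 662, 10206 and 16359. Within the 8, genes moved in both directions. The median of vamp3 was 1722 at 32 hpf and 824 at 56 hpf, that of vamp4 154 and 539, and that of stxbp4 0 and 69.0. At 32 hpf vamp3 alone made up 42.1 to 59.9% of the sum of the 60 genes.

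**Figure D1:**
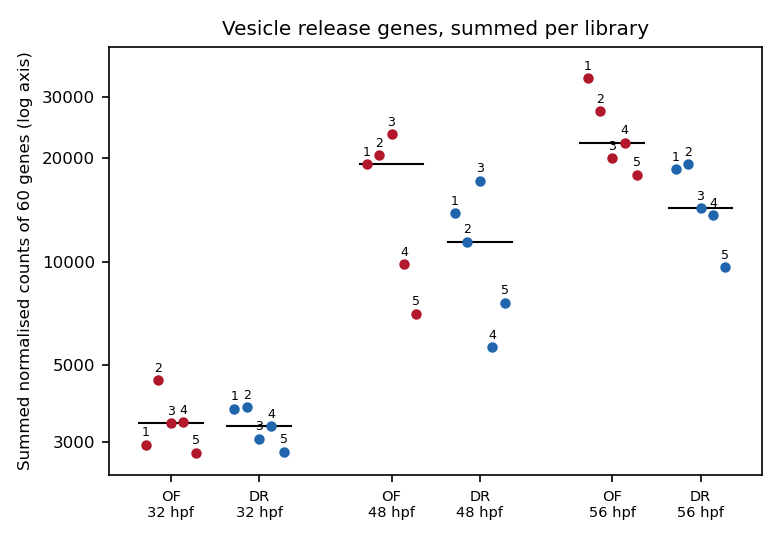
Summed normalised count of the 60 vesicle release genes in each library, on a log axis, by time and region, with OF in red and DR in blue. Points carry the replicate number and the black line is the median of 5 libraries. Every library at 48 and 56 hpf lies above every library at 32 hpf, and the highest sum, 34066, is OF replicate 1 at 56 hpf.

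The comparison of 48 with 32 hpf asks what changed in the eye between the time before fusion and the time of fusion. The mean of OF and DR in each replicate was the unit, with 5 per time, and differences are log2 fold changes of normalised count + 1. Of the 60 release genes, 47 were higher at 48 hpf, 1 was lower and 12 did not pass an adjusted p of 0.05 in limma-trend. Among all 17360 genes tested, 28.4% were called higher and 9.48% lower. The median log2 fold change of the 60 genes was 3.45, against 0.39 over all genes tested. It was 3.25 with the 2 genes without a read at 32 hpf set at their lower bound. Because a gene could be kept through its late libraries alone, the 23 genes with at least 10 normalised counts in at least 5 libraries of 32 hpf are given separately. Of these 23, 15 were called higher and 1 lower, with a median of 2.39. The shares and the median over all genes given above include genes that do not reach this level at 32 hpf. In 23 of the 60 genes all 10 libraries at 48 hpf lay above all 10 at 32 hpf, which was so for 7.81% of all genes tested. Within OF alone 45 of the 60 were called higher and within DR alone 41, each with vamp3 as the lower gene. With those pairs of replicates 1 and 5 left out, 46 were higher and 1 was lower. No share over all genes is set beside the counts of these settings. With quantile scaling 38 of the 60 were called higher and 3 lower (vamp3, stxbp2 and rims3), where 2946 of all 17360 genes were called higher and 3469 lower. That scaling moved the median of all genes to -0.17 and left 45.9% of all calls higher, against 75.0% with the deposited scaling.

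**Figure D2:**
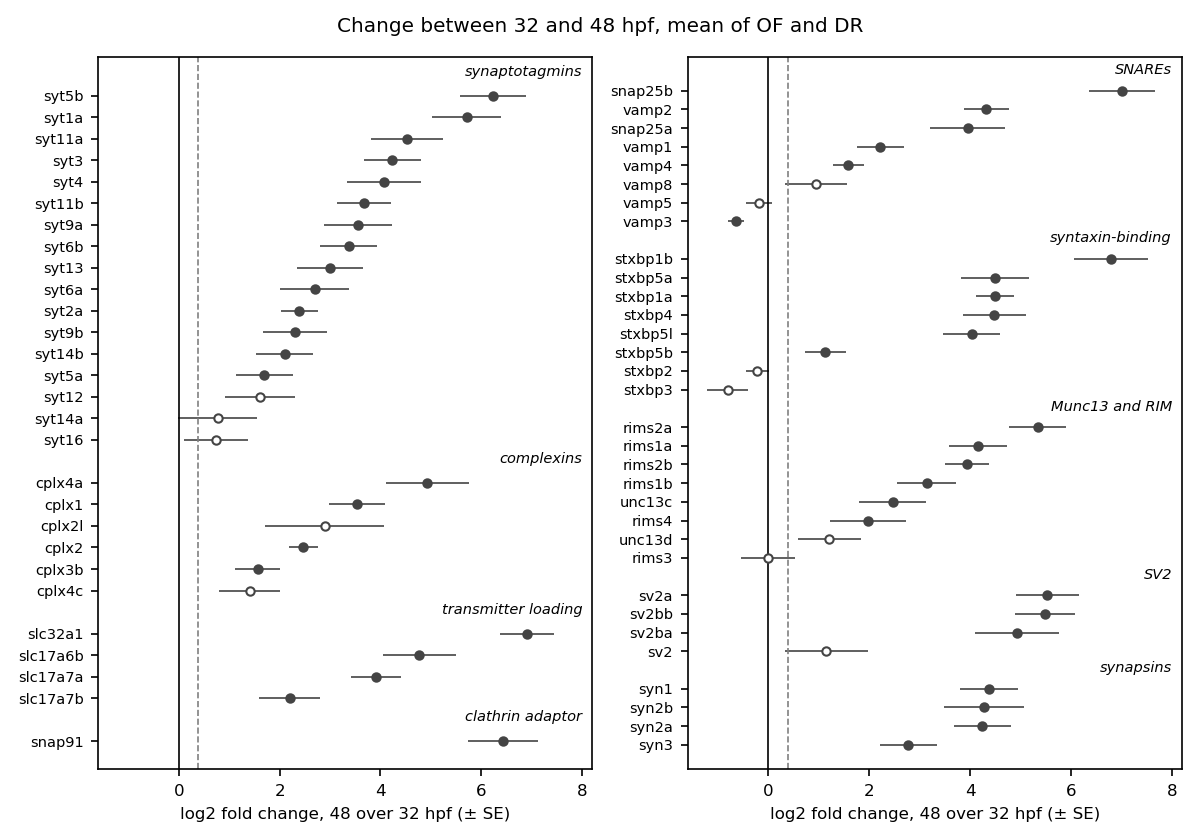
Log2 fold change of each of the 60 genes at 48 hpf over 32 hpf, as the mean of OF and DR with its standard error, grouped by role. Filled points passed an adjusted p of 0.05 in limma-trend and open points did not. The dashed line is the median of all genes tested, 0.39. Points reach from -0.80 for stxbp3 to 7.003 for snap25b.

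Among the 8 SNARE genes, 5 were higher at 48 hpf, 1 was lower and 2 did not pass. The gene snap25b (ENSDARG00000058117), 1 of 2 zebrafish copies of the plasma membrane SNARE SNAP-25, had the largest fold change of the 60 on the log2(count + 1) scale. At 32 hpf its normalised counts were 2.96, 95.2, 60.002, 89.5 and 1.67 in OF and 13.3, 17.1, 27.7, 5.22 and 2.404 in DR. At 48 hpf they were 4190.2, 4004, 5043, 1374 and 862 in OF and 3022, 1978, 3875, 435 and 1047 in DR. At 56 hpf they were 8023, 5746, 3591, 5172 and 3312 in OF and 3875, 4311, 2538, 2666 and 1656 in DR. The lowest library at 48 hpf, DR replicate 4, was still above the highest at 32 hpf, and the difference between 48 and 32 hpf was large against its error (log2 fold change 7.003 ± 0.65 (SE), limma-trend adjusted p = 5.2e-07). The other copy, snap25a, spanned 125 to 474 with a median of 355 at 48 hpf and 0 to 83.96 with a median of 29.5 at 32 hpf (log2 fold change 3.95 ± 0.74 (SE), limma-trend adjusted p = 4.7e-04). For vamp2 (ENSDARG00000056877), the synaptobrevin of synaptic vesicles, the range over 10 libraries was 333 to 1406 with a median of 831 at 48 hpf and 5.83 to 131 with a median of 41.3 at 32 hpf (log2 fold change 4.32 ± 0.45 (SE), limma-trend adjusted p = 1.6e-06). The vesicle SNARE vamp1 rose by 2.22 ± 0.46 and vamp4, a SNARE of the trans-Golgi network, by 1.58 ± 0.31 on the log2 scale.

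Unlike those genes, vamp3 (ENSDARG00000070161), the cellubrevin of recycling endosomes in many cell types, fell. Its normalised counts at 32 hpf were 1762, 1935, 1431, 1741 and 1201 in OF and 1982, 1702, 1418, 1793 and 1388 in DR. At 48 hpf they were 908, 1041, 829, 1126 and 1020.2 in OF and 1121, 1276, 1230.1, 1163 and 800.2 in DR. By 56 hpf they stood at 1069, 942, 779, 687 and 659 in OF and 839, 1409, 808, 654 and 868 in DR. The first 2 times overlapped, since the lowest OF library at 32 hpf lay below the highest libraries at 48 hpf (log2 fold change -0.64 ± 0.16 (SE), limma-trend adjusted p = 0.00465). The values of vamp5 and vamp8, which are known in mammals from muscle and from endosomes and secretory cells, were -0.19 ± 0.26 and 0.95 ± 0.61 on the log2 scale and did not pass the test.

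Of 8 syntaxin-binding genes, 6 were higher at 48 hpf and none was called lower. Of the 6, stxbp4, stxbp5a and stxbp5l did not have a count of 10 in 5 libraries of 32 hpf. These needed their later libraries to be kept. Munc18-1, the syntaxin partner without which mouse neurons do not release transmitter, is encoded by stxbp1a and stxbp1b. The counts of stxbp1a (ENSDARG00000001994) at 32 hpf were 20.7, 75.3, 117, 65.5 and 14.99 in OF and 39.98, 50.4, 93.2, 26.1 and 28.8 in DR. At 48 hpf they were 1443, 1507, 2109.8, 769 and 589 in OF and 1157, 1149.5, 1517, 327 and 782 in DR. At 56 hpf they were 2221, 2277, 1634, 1903 and 1829 in OF and 1422, 1305, 1430.5, 1168 and 896 in DR. All libraries at 32 hpf lay below all those at 48 hpf, and the gene had the smallest adjusted p of the SNARE and syntaxin-binding genes (log2 fold change 4.49 ± 0.38 (SE), limma-trend adjusted p = 2.2e-07). For stxbp1b the range was 334 to 1890.5 with a median of 786 at 48 hpf and 0 to 50.3 with a median of 8.32 at 32 hpf (log2 fold change 6.79 ± 0.73 (SE), limma-trend adjusted p = 2.1e-06). Tomosyns, which compete with VAMP for the other SNAREs and restrain release, were also higher, with 4.50 ± 0.67 for stxbp5a, 4.03 ± 0.57 for stxbp5l and 1.13 ± 0.41 for stxbp5b. In stxbp5b the call was lost in 16 of the alternative settings. The Munc18 forms of non-neuronal cells did not pass, with -0.22 ± 0.23 for stxbp2 and -0.80 ± 0.40 for stxbp3. Among the genes known mainly outside neurons stxbp4 was higher, like vamp4, at 4.48 ± 0.62 (limma-trend adjusted p = 2.7e-05).

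Of 8 Munc13 and RIM genes, 6 were higher at 48 hpf. None of the 8 had a count of 10 in 5 libraries of 32 hpf, so each needed its later libraries to be kept. RIM proteins tether vesicles and calcium channels at the active zone, and Munc13 opens syntaxin for SNARE assembly. The largest change was that of rims2a (ENSDARG00000101606). Its counts at 32 hpf were 0, 2.09, 4.86, 0.923 and 0.833 in OF and 0, 0.95, 5.12, 0 and 0 in DR. At 48 hpf they were 157, 182, 113, 29.99 and 54.3 in OF and 155, 102, 77.4, 21.3 and 55.2 in DR. At 56 hpf the libraries held 212, 211, 143, 231 and 135 in OF and 201, 114, 82.02, 61.8 and 45.2 in DR. No library at 32 hpf reached the lowest at 48 hpf (log2 fold change 5.34 ± 0.56 (SE), limma-trend adjusted p = 1.8e-06). The long RIM genes rims1a, rims2b and rims1b changed by 4.15 ± 0.58, 3.94 ± 0.43 and 3.14 ± 0.59. The short RIM gene rims3 showed -0.01 ± 0.53 and did not pass, and rims4 passed narrowly at 1.98 ± 0.75 (limma-trend adjusted p = 0.0476), a call lost in 10 of the alternative settings. The Munc13 gene unc13c was at 2.46 ± 0.66, a call lost in edgeR, with quantile scaling and in OF libraries alone. At 1.21 ± 0.63 unc13d, the form known in humans from granule release by blood cells, did not pass.

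Of 17 synaptotagmin genes, 14 were higher at 48 hpf and 3 (syt12, syt14a and syt16) did not pass. Of the 14, syt2a, syt4, syt5b, syt9b, syt11a and syt11b had a count of 10 in 5 or more libraries of 32 hpf. The other called genes needed their later libraries to be kept. Synaptotagmins 1 and 2 are the fast calcium sensors of release in mouse. For syt1a (ENSDARG00000030614) the range over 10 libraries was 59.4 to 630.4 with a median of 257 at 48 hpf and 0 to 31.4 with a median of 2.79 at 32 hpf (log2 fold change 5.71 ± 0.68 (SE), limma-trend adjusted p = 6.6e-06). For syt2a it was 51.4 to 178 with a median of 116 at 48 hpf and 6.15 to 63.3 with a median of 18.3 at 32 hpf (log2 fold change 2.39 ± 0.37 (SE), limma-trend adjusted p = 7.9e-05). The largest change in the class was that of syt5b (ENSDARG00000011640), whose counts at 32 hpf were 0, 71.1, 72.2, 55.4 and 8.33 in OF and 3.33, 2.85, 9.22, 34.4 and 16.03 in DR. At 48 hpf they were 2404, 2570.3, 3573, 827 and 437 in OF and 1298, 743, 2004, 303 and 352 in DR. The 56 hpf libraries had 5481, 3730.3, 3239, 2835 and 2323 in OF and 1697, 2061, 1532, 1501 and 920.0 in DR. Again 32 and 48 hpf did not overlap (log2 fold change 6.23 ± 0.66 (SE), limma-trend adjusted p = 1.9e-06). Its paralog syt5a was called over both regions (log2 fold change 1.70 ± 0.57 (SE), limma-trend adjusted p = 0.027), but the value was -0.21 in DR libraries alone and -0.00 after quantile scaling, so no direction over both regions is drawn from it. In syt9a no read was found at 32 hpf, and the mean of 14.9 at 48 hpf is at least 4.05-fold higher than a floor of 3 reads per library.

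Of 6 complexin genes, 4 were higher at 48 hpf and 2 did not pass. Of the 4, only cplx2 had a count of 10 in 5 libraries of 32 hpf. The other called genes, cplx1, cplx3b and cplx4a, needed their later libraries to be kept. In cplx2, a complexin of conventional synapses, the range was 121 to 255 with a median of 187 at 48 hpf and 7.17 to 71.1 with a median of 37.2 at 32 hpf (log2 fold change 2.47 ± 0.29 (SE), limma-trend adjusted p = 6.0e-06). The gene cplx1 changed by 3.54 ± 0.55. Complexins 3 and 4 are those of ribbon synapses in mouse, and 3 of the genes kept bear these names. In cplx4a no read was found in 10 libraries at 32 hpf, and the 48 hpf mean of 74.0 is at least 20.1-fold higher than the same floor. The gene cplx3b changed by 1.57 ± 0.45, a call lost in edgeR, with quantile scaling and in DR libraries alone. The gene cplx4c was at 1.41 ± 0.60 without passing. In cplx2l (ENSDARG00000018997) the libraries at 32 hpf differed widely, with 0, 646, 26.8, 35.1 and 266 in OF and 0, 528, 5.12, 5.22 and 265 in DR. In replicates 2 and 5 both regions were within or above the range of the 48 hpf libraries, which held 391, 351, 311, 191 and 184 in OF and 214, 186, 279, 110.0 and 244 in DR. At 56 hpf there were 489, 886, 449.7, 434 and 389 in OF and 515, 824, 365, 212 and 209 in DR. The comparison of 48 with 32 hpf did not pass for this gene (log2 fold change 2.89 ± 1.18 (SE), limma-trend adjusted p = 0.0623).

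All 4 synapsins, which tie vesicles to one another in the reserve pool, were higher at 48 hpf. None of the 4 had a count of 10 in 5 libraries of 32 hpf, so each needed its later libraries to be kept. Their fold changes on the log2(count + 1) scale lay between 2.77 for syn3 and 4.37 for syn1. That scale understates low genes, and for syn2b, with 3 reads at 32 hpf, the ratio of reads was 115, with a 95% counting interval of 39.1 to 559.8. For syn2a (ENSDARG00000045945) the range was 15.1 to 196 with a median of 80.97 at 48 hpf and 0 to 18.1 with a median of 4.65 at 32 hpf (log2 fold change 4.24 ± 0.56 (SE), limma-trend adjusted p = 1.8e-05). In syn1 the ranges overlapped, with 1.77 to 105 with a median of 52.9 at 48 hpf and 0 to 32.6 with a median of 0 at 32 hpf. Of the 4 genes of SV2, a glycoprotein of the vesicle membrane, 3 were higher, with 5.53 ± 0.62 for sv2a, 5.48 ± 0.60 for sv2bb and 4.94 ± 0.83 for sv2ba. The 10 libraries at 32 hpf held 1 read of sv2ba in all, so that its ratio of reads was 790.2 with a 95% counting interval of 141 to 31246. The gene listed as sv2 did not pass at 1.15 ± 0.82. It was the only SV2 gene with a count of 10 in 5 libraries of 32 hpf. The genes sv2a, sv2bb and sv2ba did not have that count in 5 such libraries, nor did the adaptor snap91. Each of these needed its later libraries to be kept. The adaptor snap91 (AP180), which recruits clathrin to retrieve vesicle membrane, spanned 121 to 484 with a median of 291 at 48 hpf and 0 to 52.3 with a median of 0.416 at 32 hpf (log2 fold change 6.44 ± 0.69 (SE), limma-trend adjusted p = 2.3e-06).

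All 4 transmitter loading genes were higher at 48 hpf. None of the 4 had a count of 10 in 5 libraries of 32 hpf, so each needed its later libraries to be kept. The vesicular inhibitory amino acid transporter slc32a1 (ENSDARG00000059775) had the smallest adjusted p of the 60 genes. Its counts at 32 hpf were 0, 20.9, 21.1, 0 and 7.49 in OF and 0, 0.95, 12.3, 6.26 and 0 in DR. At 48 hpf they were 616, 716, 778, 368 and 362 in OF and 477, 408, 717, 216 and 334 in DR. At 56 hpf the counts were 996, 880.1, 627, 793 and 639 in OF and 723, 713, 564, 568 and 335 in DR. The lowest library at 48 hpf, DR replicate 4, was far above the highest at 32 hpf (log2 fold change 6.90 ± 0.54 (SE), limma-trend adjusted p = 1.1e-07). Of the glutamate transporters, slc17a6b, the VGLUT2 known from ganglion cells, changed by 4.77 ± 0.72. The VGLUT1 copies slc17a7a and slc17a7b, the form of photoreceptors and bipolar cells in mouse, changed by 3.91 ± 0.50 and 2.20 ± 0.61. In DR alone and with quantile scaling slc17a7b did not pass.

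**Figure D3:**
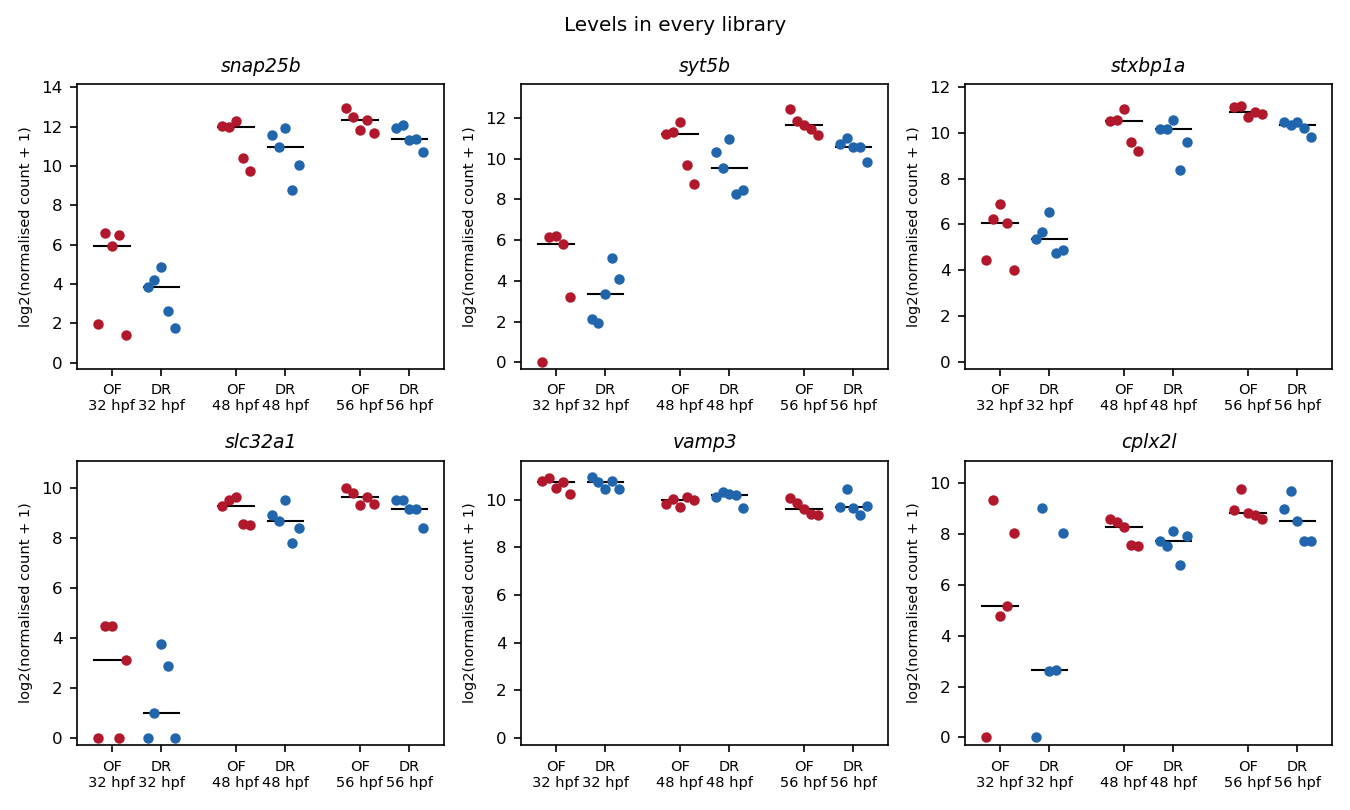
Level of 6 release genes in each library, as log2(normalised count + 1), by time and region, with OF in red and DR in blue. Points run from replicate 1 to 5 within a group and the black line is the median. In snap25b, syt5b, stxbp1a and slc32a1 no library at 32 hpf reaches those at 48 hpf, the medians of vamp3 are lower at 48 and 56 than at 32 hpf, and cplx2l has 4 libraries of replicates 2 and 5 at 32 hpf near the later level.

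Between 48 and 56 hpf limma-trend called 0 of the 60 genes, against 0.0173% of all genes tested, and 7 of the 60 had an unadjusted p under 0.05, against 4.28% of all genes. EdgeR and DESeq2 on the recovered reads also called 0, against 4 and 8 of all 17360 genes. They had 2 and 5 of the 60 under that unadjusted p, against 2.8% and 3.64% of all genes. The median log2 fold change of 56 over 48 hpf was 0.67 for the 60 genes and 0.05 over all genes. Against 32 hpf, 51 of the 60 were higher at 56 hpf and 1 was lower, where 33.1% and 12.5% of all genes were called. The median was 4.08, or 3.91 with lower bounds for genes without a read at 32 hpf. All 10 libraries at 56 hpf lay above all 10 at 32 hpf in 35 of the 60 genes, and in 12.4% of all genes. Here too a gene could be kept through its late libraries alone. Of the 23 genes with at least 10 counts in at least 5 libraries of 32 hpf, 16 were called higher and 1 lower, with a median of 3.27. In 12 of these 23 the 2 times did not overlap. The shares over all genes given above include genes that do not reach this level at 32 hpf. Cplx2l, cplx4c, syt12 and syt16 passed at 56 hpf and had not passed at 48 hpf, although the difference between 48 and 56 hpf was not called for any of them. The calls of cplx2l and syt16 were lost in edgeR and in DESeq2, those of cplx4c and syt16 in DR libraries alone, and those of cplx4c, syt12 and syt16 with quantile scaling. With quantile scaling syt16 was at -0.16 on the log2 scale at 56 over 32 hpf. The lower gene was again vamp3 (log2 fold change -0.93 ± 0.16 (SE), limma-trend adjusted p = 1.5e-04). Muscle markers set replicates 1 and 2 at 56 hpf apart, with a summed level of 16088, 11246, 109, 78.6 and 49.7 in OF and 3220.1, 5763, 96.1, 22.6 and 22.6 in DR, and the same replicates held the 2 highest release gene sums of each region. With both pairs left out, a check added after seeing the data, 48 of the 60 were higher at 56 than at 32 hpf and 1 was lower, and cplx2l, syt16 and stxbp5b were no longer called. For this check no share over all genes is set beside the counts.

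Other genes of the nerve terminal, from a separate list of 73 presynaptic genes outside the 60, were also mostly higher at 48 hpf. Of 59 that were tested, 49 were higher at 48 than at 32 hpf and 1 was lower, with a median log2 fold change of 3.75. Synaptophysin sypb, a vesicle membrane protein, changed by 7.41 ± 0.61. The GABA-synthesising enzyme gad2 changed by 6.90 ± 0.39, and the active zone scaffold pclob by 6.02 ± 0.60. The gene called lower was the glycine transporter slc6a9 at -1.10 ± 0.18.

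Markers of differentiated neurons and of dividing cells moved over the same interval. All 6 pan-neuronal markers, all 10 ganglion cell markers and 14 of 17 photoreceptor markers were called higher at 48 than at 32 hpf, as were 7 of 9 amacrine and horizontal cell markers and 4 of 5 bipolar cell markers. The other 2 amacrine and horizontal cell markers, onecut1 and slc6a9, were called lower. The summed pan-neuronal level was 11196 to 17688 at 48 hpf and 1303 to 6393 at 32 hpf. Of 10 progenitor and cell cycle markers, 8 were called lower, and their sum was 74113 to 141486 at 48 hpf and 116288 to 219423 at 32 hpf. The part of cell composition in the change of the release genes was not tested.

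The regional comparison asks how OF differed from DR at each time. In a fit of 6 group means to the 30 libraries, limma-trend called 0 of the 60 release genes at 32 hpf, 0 at 48 hpf and 1 at 56 hpf. Among all genes tested 1.14%, 0.00576% and 0.253% were called. This fit, like those of edgeR and DESeq2 below, took replicate 5 at 48 hpf as labelled, although that pair went against its labels. At 48 hpf it called 0 of the 4 ventral eye genes and 0 of 5 dorsal eye genes (aldh1a2, bambia, gdf6a, tbx5a and tbx5b). The paired fit called 4 and 5. The count of 0 and the median at 48 hpf include that pair, and do not show that the regions were alike. An unadjusted p under 0.05 was found for 8 of the 60 at 32 hpf, 6 at 48 hpf and 3 at 56 hpf, and for 8.74%, 3.96% and 5.81% of all genes. EdgeR called 0 at each time, against 157, 3 and 8 of all 17360 genes. DESeq2 called 0 at 32 hpf, 1 at 48 hpf and 1 at 56 hpf, syt5a both times, against 392, 25 and 54 of all genes. The median log2 difference of OF over DR was 0.32 at 32 hpf, 0.53 at 48 hpf and 0.66 at 56 hpf, against 0.06, 0.10 and 0.08 over all genes. With quantile scaling the 32 hpf median was -0.03. The paired fit on 13 pairs called 6 of the 60 higher in OF at 32 hpf, 8 at 48 hpf and 5 at 56 hpf, and none lower. Among all genes 2.81%, 3.04% and 2.41% were called higher and 0.449%, 1.46% and 2.32% lower.

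**Figure D4:**
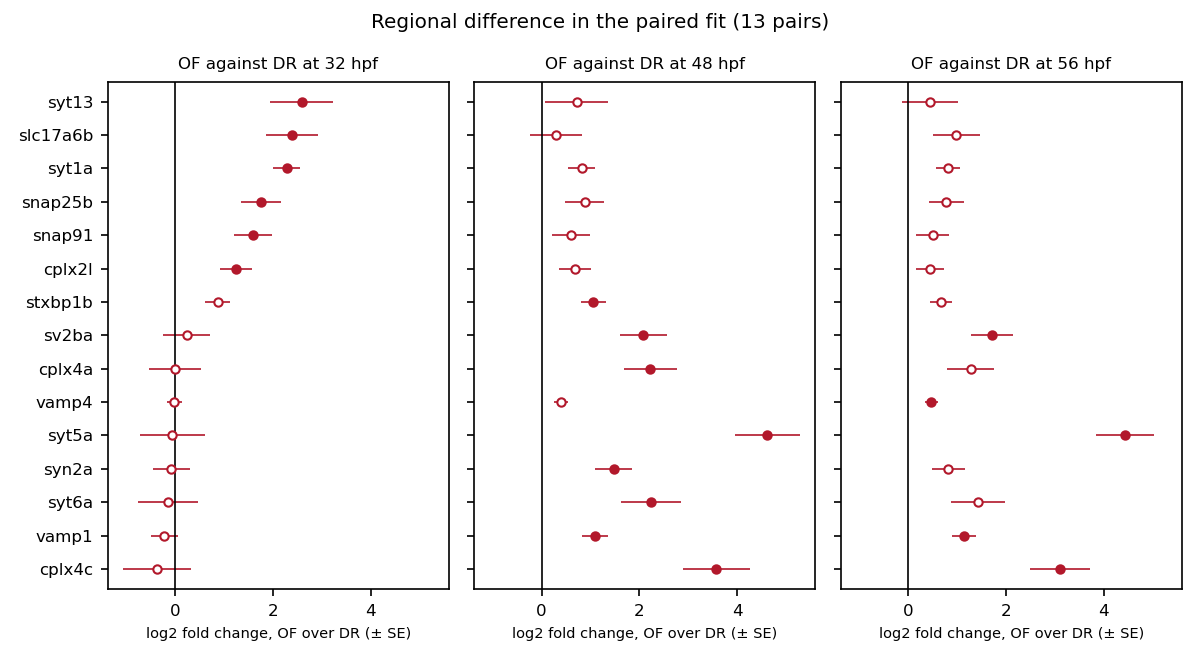
Log2 fold change of OF over DR with its standard error, from the paired fit on 13 pairs, for the 15 release genes called at any time. Columns are 32, 48 and 56 hpf, and filled points passed an adjusted p of 0.05 in limma-trend. The 6 genes filled in the left column, led by syt13, slc17a6b and syt1a, did not pass at 48 or 56 hpf in this fit, which is no test of a difference between times, and syt5a and cplx4c lie farthest to the right at 48 and 56 hpf.

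At 32 hpf the 6 genes were syt1a, slc17a6b, syt13, snap25b, snap91 and cplx2l. The counts of syt1a were 0, 15.7, 23.5, 31.4 and 2.498 in OF and 0, 0.95, 3.07, 9.39 and 0 in DR. OF was higher in all 4 pairs that entered the paired fit, and replicate 1 had no read in either region (log2 fold change 2.28 ± 0.27 (SE), limma-trend adjusted p = 4.0e-05). The counts of slc17a6b were 0, 23.01, 43.8, 31.4 and 0 in OF and 0, 0, 21.5, 1.04 and 0 in DR, with the pair of replicate 5 at 0 in both regions (log2 fold change 2.39 ± 0.53 (SE), limma-trend adjusted p = 0.0141). For syt13 they were 0, 11.5, 4.05, 17.5 and 10.8 in OF and 0, 9.505, 0, 0 and 0 in DR (log2 fold change 2.59 ± 0.64 (SE), limma-trend adjusted p = 0.0303). The counts of OF and DR overlapped in all 6 genes, and in 0 of the 60 did every OF library lie above every DR library, against 0.881% of all genes. The log2 differences of the others in the paired fit were 1.75 ± 0.40 for snap25b, 1.60 ± 0.38 for snap91 and 1.25 ± 0.33 for cplx2l. In the pairs kept, snap91 held 52.3, 24.3, 0 and 0.833 in OF and 3.80, 5.12, 0 and 0 in DR. In replicate 5 snap25b was lower in OF, at 1.67 against 2.404, and cplx2l was nearly equal, at 266 and 265. Of the 6 genes, 2 had at least 10 counts in at least 5 libraries of 32 hpf. In the fit with all 15 pairs 3 genes were called at 32 hpf, namely syt1a, stxbp1b and syt11b. No share over all genes is set beside that count. Ganglion cell markers moved with these genes: 4 of 10 (alcama, eomesa, isl1 and isl2b) were called higher in OF in the paired fit. Their summed level was 3348, 3697, 4001, 3049 and 884 in OF and 759.6, 1712, 3155, 911 and 680.3 in DR, with pou4f3 at 0 in OF. Pan-neuronal markers elavl3, elavl4 and stmn2b were also called higher in OF, 3 of 6. Of 9 amacrine and horizontal cell markers, only tfap2a was called higher in OF. The part of these markers in the result was not tested.

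At 48 hpf the paired fit called syt5a, cplx4c, sv2ba, stxbp1b, cplx4a, vamp1, syn2a and syt6a. The counts of syt5a (ENSDARG00000037941) were 11.2, 27.96, 72.4, 12.9 and 1.597 in OF and 0, 0, 0, 0 and 1.02 in DR. All reads in DR amounted to 1, and it lay in the library of replicate 5 that went against its label (log2 fold change 4.61 ± 0.66 (SE), limma-trend adjusted p = 6.4e-04). Without pairing but with the same libraries left out, syt5a and cplx4c were called, and leaving out only the OF or only the DR library of replicate 5 gave syt5a alone. The counts of cplx4c (ENSDARG00000094889) were 7.15, 28.9, 54.1, 4.28 and 0 in OF and 0, 0.788, 1.01, 0 and 4.09 in DR, with replicate 5 the other way round (log2 fold change 3.57 ± 0.69 (SE), limma-trend adjusted p = 0.00656). For sv2ba (ENSDARG00000057427) they were 92.96, 227, 276, 29.1 and 12.8 in OF and 36.2, 23.6, 61.4, 8.87 and 0 in DR, higher in OF in the 4 pairs kept (log2 fold change 2.08 ± 0.48 (SE), limma-trend adjusted p = 0.0196). The library labelled OF was also the higher in replicate 5, but that pair went against its labels. The other 5 genes had log2 differences in the paired fit of 2.23 ± 0.54 for cplx4a, 2.23 ± 0.61 for syt6a, 1.47 ± 0.38 for syn2a, 1.09 ± 0.27 for vamp1 and 1.06 ± 0.25 for stxbp1b. Over all 30 libraries, syt5a reached a count of 10 in 9, all of them OF, so it was kept only through the region where it is high. In cplx4c that count was reached in 8 libraries, of which only DR replicate 1 at 56 hpf was from DR. The filter thus favoured a difference in this direction for both genes. OF was higher in every one of the 4 pairs kept at 48 hpf in 32 of the 60 genes, and in 19.3% of all genes. With the pair of replicate 5 taken as labelled, although it went against its labels, OF was higher in all 5 pairs in 11 of the 60 and in 7.98% of all genes.

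At 56 hpf syt5a, kept through OF libraries alone, was called without pairing as well. Its counts were 144, 90.2, 21.7, 39.3 and 20.7 in OF and 4.16, 2.05, 0, 2.61 and 0 in DR, so that every OF library lay above every DR library (log2 fold change 4.43 ± 0.74 (SE), limma-trend adjusted p = 0.00271). In the paired fit the same difference had an adjusted p of 2.3e-04 in limma-trend, whereas edgeR gave an adjusted p of 0.0811, the highest of all alternatives, which reached down to 2.3e-04. The paired fit also called cplx4c, vamp1, sv2ba and vamp4. The counts of cplx4c were 70.9, 86.4, 32.9, 23.2 and 16.6 in OF and 12.5, 2.05, 0, 6.09 and 5.46 in DR, again without overlap (log2 fold change 3.11 ± 0.61 (SE), limma-trend adjusted p = 0.00572). For sv2ba they were 730.3, 222, 87.5, 174 and 91.95 in OF and 135, 171, 22.9, 88.8 and 11.7 in DR, which overlapped although OF was higher in every pair (log2 fold change 1.71 ± 0.43 (SE), limma-trend adjusted p = 0.0262). The differences of vamp1 and vamp4 were 1.15 ± 0.24 and 0.47 ± 0.13 on the log2 scale. Without the pairs of replicates 1 and 2, the libraries with the high muscle marker sums, the paired fit called syt5a (limma-trend adjusted p = 0.0172) but not cplx4c, vamp1, sv2ba or vamp4, whose adjusted p was 0.0731 to 0.202, and without pairing syt5a was at an adjusted p of 0.0725. Every OF library lay above every DR library in 7 of the 60 genes (cplx4c, slc17a6b, stxbp1a, sv2bb, syt5a, syt5b and vamp4) and in 2.22% of all genes. Of these 7, syt5b had 5481, 3730.3, 3239, 2835 and 2323 in OF and 1697, 2061, 1532, 1501 and 920.0 in DR, and was called in neither fit. OF was higher in all 5 pairs in 27 of the 60 genes, and in 13% of all genes.

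**Figure D5:**
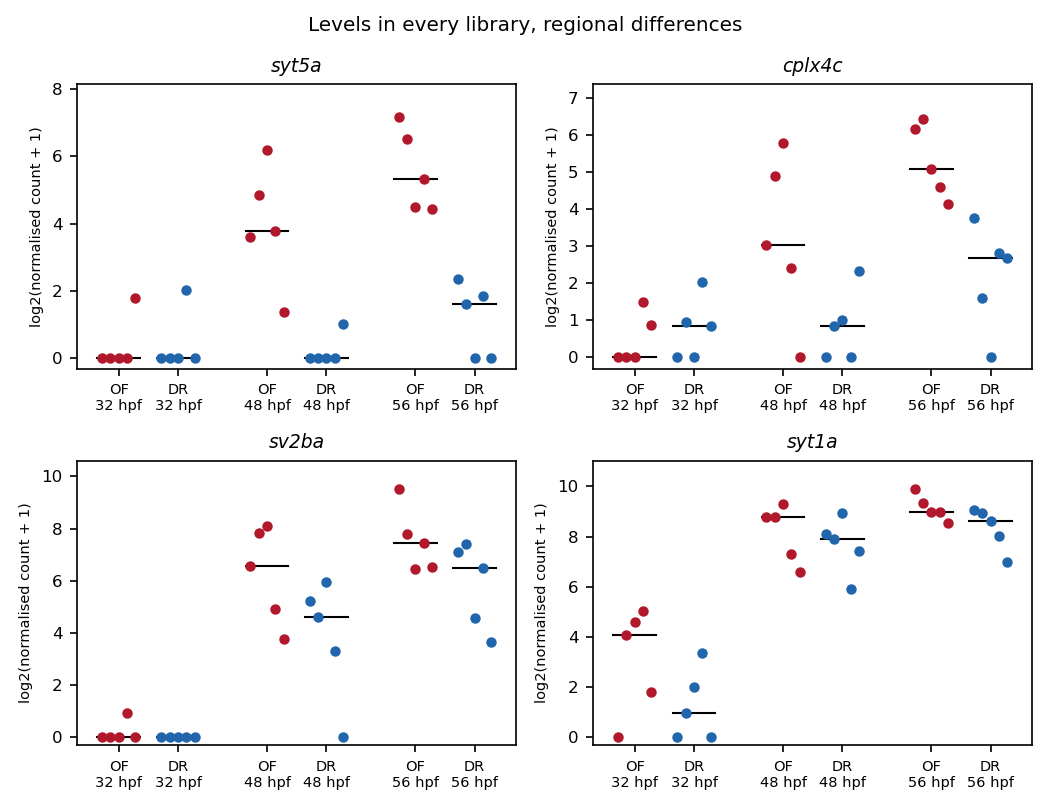
Level of 4 release genes in each library, as log2(normalised count + 1), by time and region, with OF in red and DR in blue. Points run from replicate 1 to 5 within a group and the black line is the median. In syt5a 4 of 5 DR libraries at 48 hpf are at 0, in cplx4c all OF libraries at 56 hpf lie above all DR libraries, and in syt1a the OF and DR medians lie farthest apart at 32 hpf.

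Photoreceptor markers moved with the regional differences at 48 and 56 hpf. Of 17 such markers, 12 were called higher in OF at 48 hpf and 14 at 56 hpf in the paired fit, and 2 at 32 hpf. At 48 hpf their summed level was 39248, 43502, 70532, 20772 and 11533 in OF and 20876, 15903, 23471, 12437 and 13805 in DR. At 56 hpf it was 112289, 82836, 47976, 46989 and 36639.7 in OF and 23603, 28616, 17485, 23030.5 and 16939.8 in DR, with no overlap. At 32 hpf rho, opn1sw1 and arr3a were at 0 in every DR library. In OF libraries at 32 hpf opn1sw1 was at 0. Of 5 bipolar cell markers, cabp5a and vsx1 were called higher in OF at 48 hpf, and cabp5a alone at 56 hpf. Of 10 ganglion cell markers, eomesa and isl1 were called higher in OF at both times in the paired fit. The sum of the 10 ganglion cell markers at 56 hpf was 17813, 21944, 17470.5, 21007 and 19399 in OF and 15862, 15407, 13522, 12776 and 11752 in DR, again with no overlap. In the paired fit 0 of 6 pan-neuronal markers were called at 48 or 56 hpf. Of 9 amacrine and horizontal cell markers 0 were called higher at either time, and onecut1 was called lower in OF at 56 hpf. Progenitor and cell cycle markers were lower in OF at 56 hpf, 8 of 10 in the paired fit. The part of these in the result was not tested. From the separate presynaptic list of 59 genes, the paired fit called 7 higher in OF at 32 hpf, 9 at 48 hpf and 8 at 56 hpf. None was called lower. At 32 hpf they were cadpsb, pclob, rab3c, scamp5b, sncb, sncgb and sypb. The 6 genes called at both 48 and 56 hpf were cacna1fa, ctbp2a, rab3aa, slc6a1b, stx3a and sypb. Of these, sypb was thus called at 32 hpf as well. The gene cacna1fa encodes a calcium channel subunit of photoreceptors, and the locus of ctbp2a also encodes the ribbon protein RIBEYE. Rab3aa is a small GTPase of synaptic vesicles, slc6a1b a GABA transporter of the plasma membrane, stx3a a syntaxin and sypb a synaptophysin.

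Whether the regional difference itself changed with time was tested by interaction terms. Without pairing limma-trend called 0 of the 60 genes for 48 against 32 hpf and 0 for 56 against 32 hpf, with 0.00576% of all genes called each time. It found 3 of the 60 at an unadjusted p under 0.05 each time, against 3.8% of all genes at 48 hpf and 4.1% at 56 hpf. EdgeR and DESeq2 called 0 as well, against 5 and 46 of all 17360 genes at 48 hpf and 3 and 16 at 56 hpf. These fits without pairing took replicate 5 at 48 hpf as labelled. Their 0 for 48 against 32 hpf therefore does not decide that question. In the paired fit, in which 0.403% of all genes were called each time, syt5a was the gene called both times. Its log2 difference of OF over DR was larger by 4.67 ± 0.94 at 48 than at 32 hpf (limma-trend adjusted p = 0.038) and by 4.49 ± 0.89 at 56 than at 32 hpf (adjusted p = 0.0294). Without the pairs of replicates 1 and 2 at 56 hpf the second of these had an adjusted p of 0.212. At 32 hpf both regions held 3 reads of syt5a each, so this difference sets a nearly absent gene against 1 seen mainly in OF. The gene was also kept through OF libraries alone.

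The 15 genes with a matching name that were not kept included cplx3a (under 2 IDs), cplx4b, slc17a6a, slc17a8, stxbp6l, sv2c, syt10, syt15, syt17, syt1b, syt7a, syt7b, syt8 and unc13ba. None of them had a normalised count of 10 in more than 4 libraries, and their highest single values were 77.7 for syt7b, 66.6 for syt17 and 59.5 for syt10. For pairs of duplicated genes, such as snap25a and snap25b or stxbp1a and stxbp1b, reads that fit both copies could have been split or dropped, so a difference between copies is uncertain.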

How the data were processed

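The deposited table gives a signal per gene and library, a normalised read count: the authors divided gene reads by a size factor per library. The submitters' processing notes list STAR 2.4.0, HTSeq, Picard, DESeq2 and Trim Galore with build GRCz10, without order, and the annotation and strand setting are not given in the sources used here. RNA was extracted with a kit for fixed tissue and made into libraries with the SMARTer kit for small inputs, as the labels' protocols say. Whole reads were recovered from the steps between low values, and 100% of values were whole within 0.01 reads.

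Tests used the 17360 of 27731 genes that reached a value of 10 in 5 libraries. Limma-trend (limma 3.58.1, R 4.3.3) was run on log2(value + 1), which understates changes of low genes, with two-sided tests and Benjamini-Hochberg adjustment over all genes kept. A call was an adjusted p under 0.05. Regional comparisons fitted 6 group means to 30 libraries. Comparisons between times used the mean of OF and DR in each replicate. EdgeR 4.0.16 and DESeq2 1.42.0 on recovered reads, other pseudocounts, filters and scalings, and leaving out libraries were alternatives, of which those without replicates 1 and 2 at 56 hpf were chosen after seeing the data. Tests were checked on simulated data. Counting intervals and floors cover counting error only.

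In all 15 pairs OF and DR libraries of the same number deviated together from their group means within a time (r 0.23 to 0.52). Numbers did not pair libraries across times (median r 0.04). Nothing but the word biological in the labels says what separates replicates, so p-values measure the spread between these samples.

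Genes for a fuller account were the 2 with the highest mean in each role class and the 6 called with the smallest adjusted p per comparison. Values in every library are printed for only some of these, and ranges, medians or fold changes for the rest. Other genes are given in counts and ranges, and some further genes were chosen after their values were seen. The members, lists and the pairs left out were chosen with earlier results of these data known. Marker lists of retinal cell types are given where they moved with a result, and the part of composition was not tested. Of 10 general retina markers, 5 were called higher and 2 lower at 48 than at 32 hpf. In the paired fit 3, 2 and 1 of the 10 were called higher in OF at 32, 48 and 56 hpf. Of the marker lists, those for endothelium, erythrocytes, mesenchyme, pigment, lens, muscle and epidermis are given in the closing section.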

Additional observations from a re-analysis of the deposited data

Results flagged for a closer look

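Of the 101 groups of 5 libraries tested, among 19 release genes, 5 held a library far from the other 4, and chance alone flags about 1 group in 20. In cplx2l the OF library of replicate 2 at 56 hpf had a normalised count of 885.8, against 489 in the next. The slc17a6b count in DR at 32 hpf was 21.5 in replicate 3 and 1.04 in the next library. The syn1 count in OF at 32 hpf was 32.6 in replicate 1, a library that stood apart in its number of genes, and 3.24 in the next. The syn2a count in DR at 32 hpf was 18.1 in replicate 2 and 5.12 in the next. The vamp3 count in DR at 56 hpf was 1409 in replicate 2 and 868 in the next.

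The regional difference of syt5a was called as differing between times in the paired fit. Limma-trend without pairing, edgeR and DESeq2 did not call it, and took replicate 5 at 48 hpf as labelled. In the paired fit, by limma-trend, the log2 difference of OF over DR was larger by 4.67 at 48 than at 32 hpf (adjusted p = 0.038) and by 4.49 at 56 than at 32 hpf (adjusted p = 0.0294). OF exceeded DR in all 4 pairs kept at 48 hpf and in all 5 at 56 hpf. Without the pairs of replicates 1 and 2 at 56 hpf the second difference had a limma-trend adjusted p of 0.212. At 32 hpf both regions held 3 reads each, and the gene was kept through OF libraries alone.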

How the results depend on the processing

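Of 48 release genes called between 48 and 32 hpf, 37 stayed called in the same direction under every alternative in which they were tested, as did 41 of 52 between 56 and 32 hpf. Requiring a mean of 50 left 35 of the 60 genes, of which 30 and 31 were called. Leaving out 1 replicate at a time gave 45 to 48 and 52 to 53 calls. A block on replicate number shared between times gave 47 and 52. No share over all genes is set beside the counts with the mean of 50, with a replicate left out or with this block. Quantile scaling moved the median of all genes at 48 over 32 hpf to -0.17, against 0.39, and gave 38 higher and 3 lower (vamp3, stxbp2 and rims3). Among all 17360 genes tested it gave 2946 higher and 3469 lower. Relative to the median of all genes the 60 had 2.00 with quantile scaling and 3.06 with the deposited scaling. The value of syt5a at 48 over 32 hpf was -0.00241 with quantile scaling and -0.21 in DR alone, against 1.70.

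Regional counts depended on pairing. With the replicate block and all pairs, 3 genes were called at 32 hpf, 2 at 48 hpf and 2 at 56 hpf, and with 13 pairs 6, 8 and 5, with 1 in each interaction. The fit on 13 pairs called 2.81%, 3.04% and 2.41% of all genes higher in OF. Without the block on those pairs the counts were 0, 2 and 2. No share over all genes is set beside the counts with all pairs or without the block, so nothing particular to the release genes is read from them. DESeq2 called 1 at 48 hpf, edgeR 0 at 56 hpf, quantile scaling 2 at 56 hpf, and the filter at a mean of 50 called 0 there because it removed syt5a. Without replicates 1 and 2 at 56 hpf the count there was 0, or 1 with the replicate block, also without a share over all genes. Leaving out 1 library gave 0 to 1 at 32 hpf (syt11b, without DR replicate 3), 0 to 1 at 48 hpf (syt5a, without OF or DR replicate 5) and 1 to 1 at 56 hpf. The difference of cplx2l at 32 hpf ranged from -0.12 (without DR replicate 1) to 2.37 (without OF replicate 1) as single libraries were left out. The causes were not tested. No read of syt9a or cplx4a was found at 32 hpf, so that depth leaves only a lower bound for their change.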

Other observations

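Markers of other tissues were measured in the same libraries. In the paired fit at 32 hpf, 4 of 5 erythrocyte markers and 3 of 7 each of endothelium and periocular mesenchyme markers were called higher in OF. Between 48 and 32 hpf, 2 of 4 muscle, 1 of 2 lens, 2 of 6 pigment cell and 5 of 7 periocular mesenchyme markers were called higher. Over the same interval 2 of 5 erythrocyte, 1 of 7 endothelium and 0 of 1 epidermis markers were called higher. Between 56 and 32 hpf, 4 of 4 muscle, 2 of 2 lens, 4 of 6 pigment cell, 2 of 5 erythrocyte and 1 of 7 endothelium markers were called higher. The periocular mesenchyme sum at 56 hpf was 1277, 1147, 146, 155 and 113 in OF and 875, 793, 79.4, 82.7 and 72.5 in DR. The muscle and mesenchyme sums were both high in replicates 1 and 2 at 56 hpf, and their part in the level of the release genes was not tested.

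In stxbp3, which was called in no comparison, the counts at 48 hpf were 412, 594, 93.5, 83.97 and 367 in OF and 481, 559, 139.8, 168 and 336 in DR, lowest in replicates 3 and 4 in both regions. Its counts at 32 hpf were 465, 455, 331, 378 and 411 in OF and 939.5, 604, 431, 452 and 339 in DR.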
